A study of Zea mays with 6 samples.

Results

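The maize mitochondrial chromosome was examined in endosperm of the mutant smk8-ref, using the 3 smk8-ref and 3 wild-type (WT) libraries of the study, all taken at 12 days after pollination. The endosperm is the starch- and protein-storing tissue of the kernel. The design text calls the libraries of a genotype biological repeats, without saying whether they came from separate ears or plants. Neither the genetic background nor the gene altered in smk8-ref is named in the labels, which list no further treatment. Members were the loci placed on the mitochondrial chromosome of the deposited table with at least 1 FPKM in at least 3 of the 6 libraries. FPKM is the number of sequenced fragments divided by the length of the transcript and by the size of the library. The table held 115 mitochondrial loci, of which 72 met the rule and 43 did not, among 36781 loci in all.

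Plant mitochondria keep a small set of genes of their own. These encode core subunits of the respiratory complexes and of ATP synthase, proteins that mature cytochrome c, ribosomal proteins and an intron maturase, and most other subunits are made from nuclear genes and imported. The maize mitochondrial chromosome also carries many open reading frames without a known product, named orf and the number of their codons. Plant mitochondrial messages undergo C-to-U editing and splicing of group II introns, and in plants a poly(A) tail marks a mitochondrial message for decay. The labels do not say how messenger RNA was selected for these libraries.

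The table paired 1 of the 115 mitochondrial loci with a gene name. Names were therefore taken from the RefSeq gene table (assembly Zm-B73-REFERENCE-NAM-5.0), where none of the identifiers was found but where 90 of the 115 loci, 55 of the 72 members among them, had exactly the start and end of a protein-coding mitochondrial gene. A further 14 members overlapped a RefSeq mitochondrial gene without sharing both ends, and are called the locus of that gene below. The other 3 members overlapped none. Of the 72 members, 16 were named for a known role, 9 by exact position and 7 by overlap, and 56 were open reading frames or unnamed loci.

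The mitochondrial chromosome held a larger part of the summed expression in smk8-ref endosperm than in WT endosperm. Its 115 loci summed to 23491, 24047 and 24616 FPKM in the smk8-ref libraries, against 17056, 19211 and 19275 FPKM in the WT libraries. That was 7.69%, 8.05% and 8.37% of the FPKM sum in smk8-ref and 5.31%, 6.69% and 6.07% in WT. The genotypes did not overlap, and the ratio of the mean sums was 1.30. These sums include loci listed near zero in single libraries, cox2 and cox3 among them. For the 66 members with at least 1 FPKM in every library, the shares were 7.34%, 7.23% and 7.22% in smk8-ref and 5.24%, 6.37% and 5.34% in WT. In these bulk libraries a different number of mitochondria or cells and a different amount of RNA in each cannot be told apart, and a share of a sum also moves with the other RNA in it. No test is given for a sum over chosen loci.

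**Figure D1:**
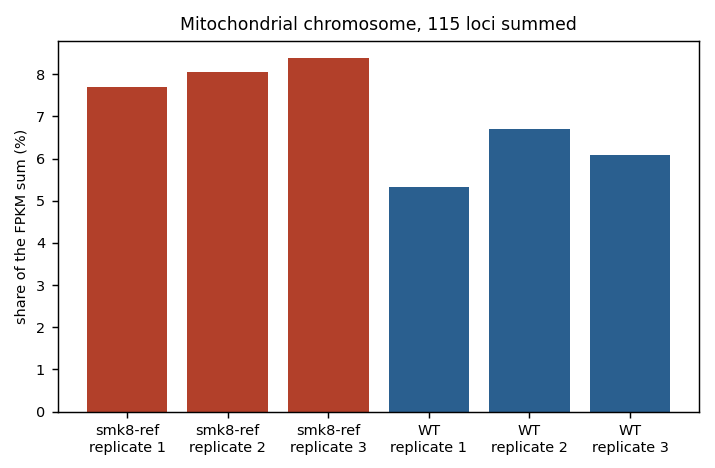
Summed FPKM of the 115 mitochondrial loci as a percentage of the FPKM sum of each library, with loci listed near zero in single libraries included. The smk8-ref libraries, left, lie between 7.69% and 8.37%, and the WT libraries, right, between 5.31% and 6.69%.

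A pair of reading frames made up about as much of this sum as all other mitochondrial loci together. They held 60.6%, 55.0% and 51.7% of the mitochondrial FPKM in smk8-ref and 59.5%, 57.3% and 54.7% in WT. orf99-d (GRMZM5G845024, 138031 to 138330, minus strand) stood at 10648, 10013 and 9353 FPKM in smk8-ref, against 7239.5, 7809.5 and 7646 FPKM in WT. orf147-b (GRMZM5G807592, 356474 to 356917, minus strand) stood at 3585, 3206 and 3369 FPKM in smk8-ref, against 2906, 3205 and 2895 FPKM in WT. Both had groups that did not overlap, for orf147-b only just, and neither passed the test described next (log2 change 0.40, adjusted p = 0.30, and 0.17, adjusted p = 0.58, with orf99-d at 0 and orf147-b at -0.13 after quantile normalization, which gives the top-ranked locus of every library the same value). In RefSeq order orf99-d is the neighbour of atp4, a subunit of ATP synthase, and orf147-b of cox1, the catalytic subunit of cytochrome c oxidase, which was not analysed here. Without the loci that had a library under 1 FPKM, the sums were 22414, 21615 and 21213 FPKM in smk8-ref and 16822, 18290 and 16929 FPKM in WT.

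Locus by locus, few members could be called. On log2(FPKM + 1), limma with Benjamini-Hochberg adjustment over all 15858 loci of the table that met the filter called 3 of the 72 members at an adjusted p under 0.05, all 3 higher in smk8-ref and none lower. This is 4.17% of the members, against 7.60% of all loci tested (1205 loci, with 538 or 3.39% higher and 667 or 4.21% lower). At an unadjusted p under 0.05, 15 members were higher (20.8%, against 15.1% of all loci) and 4 were lower (5.56%, against 13.2%). The groups did not overlap for 23 members that were higher (31.9%, against 18.7% of all loci) and 6 that were lower (8.33%, against 15.9%). The log2 change was positive for 56 of 72 members (77.8%, against 55.5% of all loci), with a median of 0.23 against 0.05 over all loci and -0.47 over the 47 plastid-encoded loci that met the filter. With each library scaled to its nuclear FPKM sum the calls over all loci were 651 higher and 513 lower, and with median-of-ratios scaling they were 534 and 916, while the members' median stayed positive (0.29 and 0.18).

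**Figure D2:**
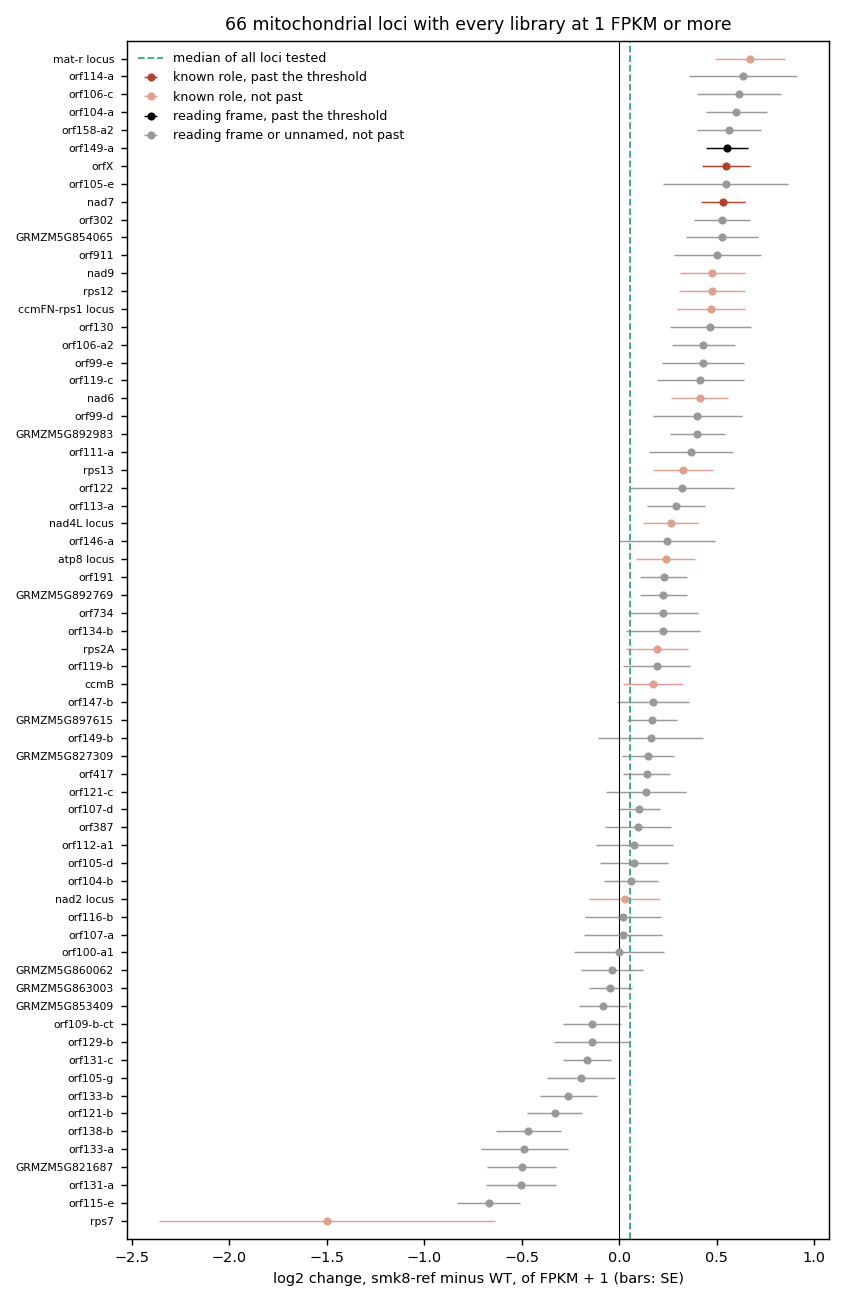
The log2 change of FPKM + 1, smk8-ref minus WT, with its standard error, for the 66 members with at least 1 FPKM in every library; the dashed line is the median of all loci tested, 0.05. The members past the threshold, nad7, orfX and orf149-a, lie between 0.53 and 0.55, and rps7 lies farthest to the left with a wide error.

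The 3 members that rose were nad7, orfX and orf149-a. nad7 encodes a subunit of complex I, the NADH dehydrogenase of the respiratory chain, in the arm that faces the matrix. nad7 (GRMZM5G856027, 237577 to 243574, minus strand) stood at 155, 159 and 156 FPKM in smk8-ref, against 101, 108 and 116 FPKM in WT. All smk8-ref libraries lay above all WT libraries, and the log2 change was 0.53 ± 0.11 (SE, 1.45-fold, adjusted p = 0.039).

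orfX, the reading frame of a membrane protein of the TatC family also known as mttB, stood at 107, 93.4 and 97.5 FPKM in smk8-ref, against 63.1, 65.4 and 74.4 FPKM in WT (GRMZM5G821527, 496997 to 497812, minus strand). Its groups were well apart, with a log2 change of 0.55 ± 0.12 (SE, 1.46-fold, adjusted p = 0.043). orf149-a (GRMZM5G836544, 564497 to 564946, plus strand), which has no known product, stood at 33.8, 33.0 and 35.0 FPKM in smk8-ref, against 23.3, 23.8 and 21.4 FPKM in WT. Both genotypes were tight and apart, with a log2 change of 0.55 ± 0.11 (SE, 1.47-fold, adjusted p = 0.034). orf149-a shares 21 bases with orf120 on the other strand, which did not meet the filter, and ends 56 bases before nad6 on the same strand. The calls of all 3 members were lost with any 1 library left out except WT replicate 3, and with the replicate number as a block, while each stayed higher in smk8-ref in every alternative fit.

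**Figure D3:**
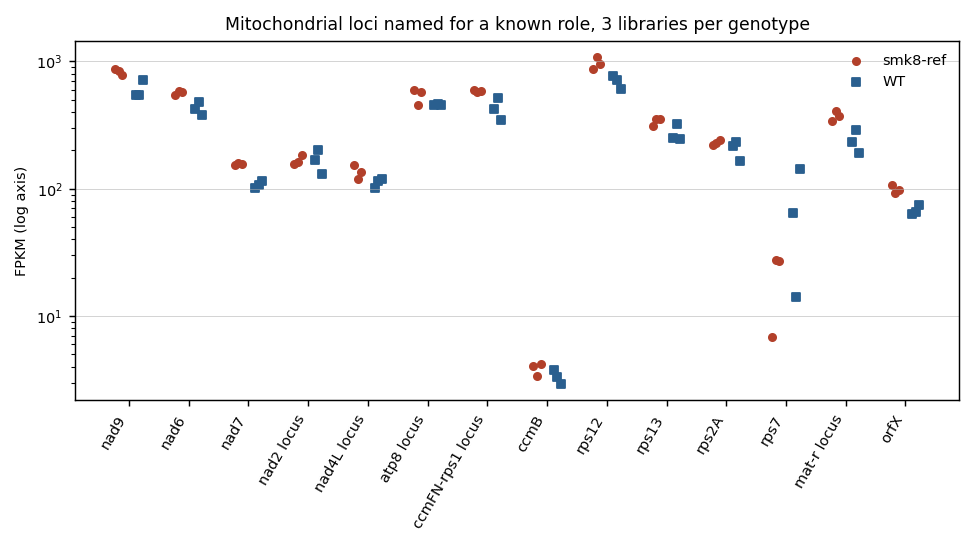
FPKM on a log axis in each library for 14 members named for a known role that had at least 1 FPKM in every library, smk8-ref as circles to the left and WT as squares to the right. nad7 and orfX have groups apart, and rps7 spreads from 6.86 to 143 FPKM.

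Other complex I genes had higher means in smk8-ref without passing. nad9, the partner of nad7 in the matrix arm, stood at 875, 836 and 782 FPKM in smk8-ref, against 541, 545 and 716 FPKM in WT. nad6, a subunit of the membrane arm, stood at 547, 581 and 579 FPKM in smk8-ref, against 424, 482 and 381 FPKM in WT. The groups of both did not overlap, with log2 changes of 0.48 ± 0.17 and 0.41 ± 0.14 (SE) and an adjusted p of 0.12 for each.

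The locus of nad4L, another membrane-arm subunit, also covers orf110-a and orf126-a, and stood at 154, 119 and 134 FPKM in smk8-ref, against 102, 115 and 120 FPKM in WT. These groups overlapped narrowly (log2 change 0.27 ± 0.14, adjusted p = 0.27). The locus that overlaps nad2 stood at 157, 164 and 184 FPKM in smk8-ref, against 170, 202 and 130 FPKM in WT, so that all smk8-ref values lay within the WT range (adjusted p = 0.94). Of the 5 complex I loci, 1 rose, none fell and 4 did not pass, where 3.39% of all loci tested rose and 4.21% fell.

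The single ATP synthase locus did not pass the test. It covers atp8, a subunit of the membrane sector, and stood at 595, 455 and 576 FPKM in smk8-ref, against 457, 459 and 451 FPKM in WT. A single smk8-ref library, replicate 2, lay among the WT values, and the log2 change was 0.24 ± 0.15 (SE, adjusted p = 0.35).

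Cytochrome c maturation was represented by a pair of loci of very different level. The locus of ccmFN, part of the heme lyase, also covers the ribosomal protein gene rps1, and stood at 601, 573 and 582 FPKM in smk8-ref, against 425, 512 and 345 FPKM in WT. Its groups did not overlap (log2 change 0.47 ± 0.17, adjusted p = 0.14), and reads of ccmFN and rps1 cannot be told apart in it. ccmB, a membrane subunit of the heme export step, stood at 4.05, 3.36 and 4.23 FPKM in smk8-ref, against 3.75, 3.29 and 2.93 FPKM in WT, with overlapping groups (adjusted p = 0.50).

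Ribosomal protein genes of the small subunit did not pass either. rps12 stood at 870.2, 1082 and 961 FPKM in smk8-ref, against 773, 718 and 607 FPKM in WT, with groups apart (log2 change 0.47 ± 0.17, adjusted p = 0.13). rps13 stood at 313, 355 and 351 FPKM in smk8-ref, against 249, 322 and 246 FPKM in WT, where WT replicate 2 lay inside the smk8-ref range (log2 change 0.33 ± 0.15, adjusted p = 0.22). rps2A stood at 221, 231 and 240.2 FPKM in smk8-ref, against 215, 231 and 164 FPKM in WT, with overlapping groups (log2 change 0.19 ± 0.16, adjusted p = 0.46, and 0.05 without WT replicate 3).

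rps7 was the most variable of the members with at least 1 FPKM in every library. It stood at 6.86, 27.4 and 26.8 FPKM in smk8-ref, against 64.1, 14.0 and 143 FPKM in WT. WT replicate 2 lay among the smk8-ref values while the other two WT libraries lay far above them, and the log2 change was -1.50 ± 0.86 (SE, adjusted p = 0.30). It was -0.89 without smk8-ref replicate 1, -2.40 without WT replicate 2 and -0.77 without WT replicate 3.

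mat-r, the maturase that helps splice group II introns and itself lies within an intron of nad1, had the highest log2 change among the members with at least 1 FPKM in every library. Its locus stood at 341, 405 and 373 FPKM in smk8-ref, against 231, 288 and 191 FPKM in WT. The groups were apart, but WT ranged widely, and the log2 change of 0.67 ± 0.18 (SE, 1.59-fold) missed the threshold (adjusted p = 0.069). Of the 16 members with a known role, 2 rose, none fell and 14 did not pass, where 3.39% of all loci tested rose and 4.21% fell. Leaving out cox2 and cox3, described next, 13 of 14 had a positive change (55.5% of all loci), with a median of 0.37 against 0.05 over all loci.

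The cytochrome c oxidase loci could not be compared. The locus of cox3, a core subunit, was listed at 0.127, 1279 and 2358 FPKM in smk8-ref, against 0.101, 0.133 and 1515 FPKM in WT. The locus of cox2, which binds cytochrome c, was listed at 795, 848 and 780 FPKM in smk8-ref, against 0.322, 690 and 714 FPKM in WT. Each genotype thus had both full and near-zero values of cox3, and a single near-zero library set the WT mean of cox2.

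The same kind of value stood in 1 library each for a further 4 members. orf117-c was at 146, 162 and 168 FPKM in smk8-ref, against 141, 146 and 0.107 FPKM in WT. orf126-d was at 34.0, 40.5 and 36.2 FPKM in smk8-ref, against 0.133, 36.7 and 38.1 FPKM in WT. orf137-a-ct, a plastid-derived frame that the table names ycf72-1, was at 45.2, 45.2 and 54.2 FPKM in smk8-ref, against 52.7, 0.00052 and 38.2 FPKM in WT.

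GRMZM5G838963, the locus of orf193-a1, was listed at 51.6, 52.4 and 0 FPKM in smk8-ref, against 33.9, 41.5 and 34.3 FPKM in WT. Leaving out these 6 members, 66 remained, of which 51 had a positive change, and their median was 0.21.

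Several respiratory genes were listed near zero in every library and fell below the filter. cob, the cytochrome b of complex III, lay between 0.0981 and 0.154 FPKM over the 6 libraries, atp4 between 0.199 and 0.295, nad3 between 0.256 and 0.401, ccmC between 0.0960 and 0.114, and rps4 between 0.0556 and 0.107. nad3 is separated from rps12 by 44 bases on the same strand, and rps12 stood at 607 FPKM or more in every library. atp4 is separated by 222 bases from orf99-d on the same strand. These genes are used by every respiring cell, so the values are given as listed and are not read as absence. Of the 43 loci below the filter, 42 were under 1 FPKM in all 6 libraries.

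**Figure D4:**
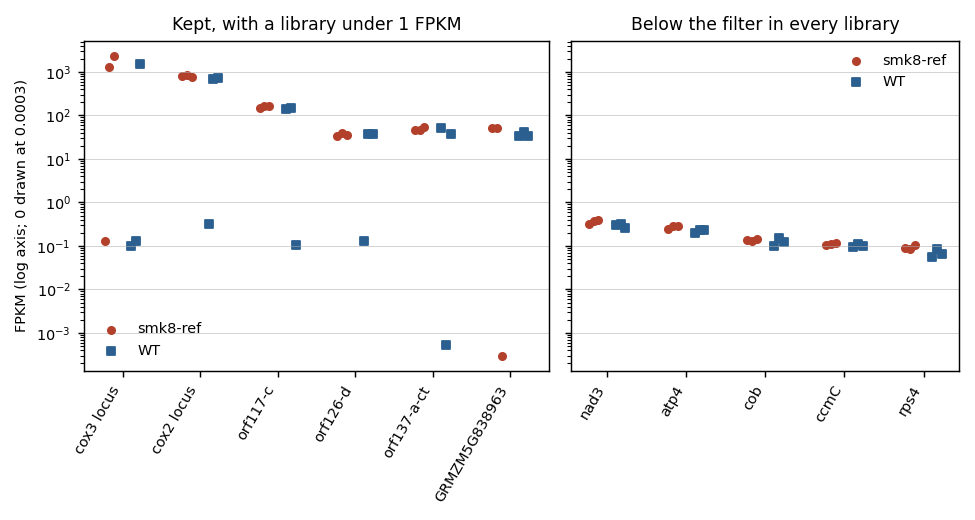
FPKM on a log axis in each library, smk8-ref as circles to the left and WT as squares to the right, for the 6 members with a library under 1 FPKM and for 5 named genes below the filter. Near-zero values occur in single libraries of either genotype in the left panel and in all 6 libraries in the right panel.

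Repeated sequence showed the same split of full and near-zero values. RefSeq names 5 of the exactly matched reading frames in 2 copies of equal length, and 4 of these pairs lie 100620 bases apart, copy for copy. orf100-a1 ranged from 10.7 to 20.6 FPKM, while orf100-a2 reached at most 0.148 FPKM. orf106-a1 ranged from 0.116 to 0.182 FPKM and orf106-a2 from 5.78 to 10.5 FPKM. In 4 of the 5 pairs 1 copy met the filter and the other did not. How reads were divided between copies was not tested.

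By the third-highest library, no mitochondrial locus lay between 0.608 and 1.70 FPKM. Just inside the rule were orf121-c (1.70 FPKM, and from 1.10 to 2.27 FPKM over all libraries) and orf104-a (3.37 FPKM). Just outside the rule were GRMZM5G844030 (0.608 FPKM) and orf118 (0.332 FPKM). cox3 met the rule with the minimum of 3 libraries.

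Among the 52 reading frames and unnamed loci with at least 1 FPKM in every library, 38 had a positive change, with a median of 0.16. Below the leading pair, 11 had a mean over all libraries of 104 to 305 FPKM, among them orf911 (224, 238 and 244 FPKM in smk8-ref, against 180.2, 215 and 117 FPKM in WT), orf99-e and orf191. A further 21 had means of 20.4 to 65.1 FPKM, with orf149-a among them, and 18 had means from 1.55 FPKM up to 20 FPKM.

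Several of these missed the threshold narrowly. orf302 stood at 29.0, 32.4 and 30.4 FPKM in smk8-ref, against 20.4, 24.9 and 18.0 FPKM in WT (log2 change 0.53 ± 0.15, adjusted p = 0.073). orf104-a stood at 3.37, 3.93 and 4.14 FPKM in smk8-ref, against 2.10, 2.55 and 1.87 FPKM in WT (log2 change 0.60 ± 0.16, adjusted p = 0.064). Their groups did not overlap, nor did those of orf158-a2, at 63.9, 74.4 and 75.3 FPKM in smk8-ref and 39.9, 58.3 and 46.6 FPKM in WT (log2 change 0.56 ± 0.16, adjusted p = 0.083).

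A pair of loci that overlap no RefSeq gene lay in the same range. GRMZM5G854065 stood at 366, 324 and 351 FPKM in smk8-ref, against 233, 305 and 195 FPKM in WT, and GRMZM5G892983 at 153, 151 and 159 FPKM in smk8-ref, against 120.4, 133 and 98.8 FPKM in WT. Both had groups apart and an adjusted p of 0.12.

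A few reading frames ran the other way. orf115-e stood at 5.48, 7.57 and 8.02 FPKM in smk8-ref, against 11.3, 12.2 and 11.4 FPKM in WT, with groups apart and a log2 change of -0.67 ± 0.16 (SE) that just missed the threshold (adjusted p = 0.052). It passed with a pseudocount of 5 (adjusted p = 0.047), with a filter at 5 FPKM (adjusted p = 0.036) and with median-of-ratios scaling (adjusted p = 0.036). In the other 14 of 17 alternative fits it did not pass (limma adjusted p up to 0.129). The other members at an unadjusted p under 0.05 in this direction were orf138-b, orf131-a and GRMZM5G821687, all on the minus strand. orf138-b and orf131-a are 203 bases apart, and GRMZM5G821687 is 202 bases from orf133-b, which was not under 0.05.

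In the first neighbour pair, orf138-b stood at 32.0, 44.2 and 44.5 FPKM in smk8-ref, against 54.6, 61.5 and 50.4 FPKM in WT, and orf131-a at 15.1, 13.5 and 20.9 FPKM in smk8-ref, against 21.8, 25.8 and 22.8 FPKM in WT. In the second, GRMZM5G821687 stood at 132, 104 and 153 FPKM in smk8-ref, against 168, 208 and 172 FPKM in WT, and orf133-b at 129, 102 and 136 FPKM in smk8-ref, against 142, 156 and 139 FPKM in WT. All 4 had the smk8-ref libraries below the WT libraries. Their log2 changes were -0.47, -0.50, -0.50 and -0.26 in that order, with adjusted p-values of 0.13, 0.13, 0.13 and 0.29, so that none was called, and quantile normalization turned orf133-b to 0.14.

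The changes of the members can be set beside those of nuclear loci of like abundance. Among members with at least 1 FPKM in every library, the median log2 change was 0.30 for the 24 with a mean of 100 FPKM or more, 0.23 for the 23 with 20 to 100 FPKM and 0.02 for the 19 under 20 FPKM. Nuclear loci under the same condition had medians of -0.50 (354 loci), -0.24 (1996 loci) and 0.06 (10203 loci). A positive change was found for 21 of the 24 most abundant members and for 20.1% of the nuclear loci in that class. Loci are not independent replicates, these values come from the same libraries and no test is given for them. Across the 66 members the rank correlation of level and change was 0.28 (Spearman, with no p, since loci share libraries).

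**Figure D5:**
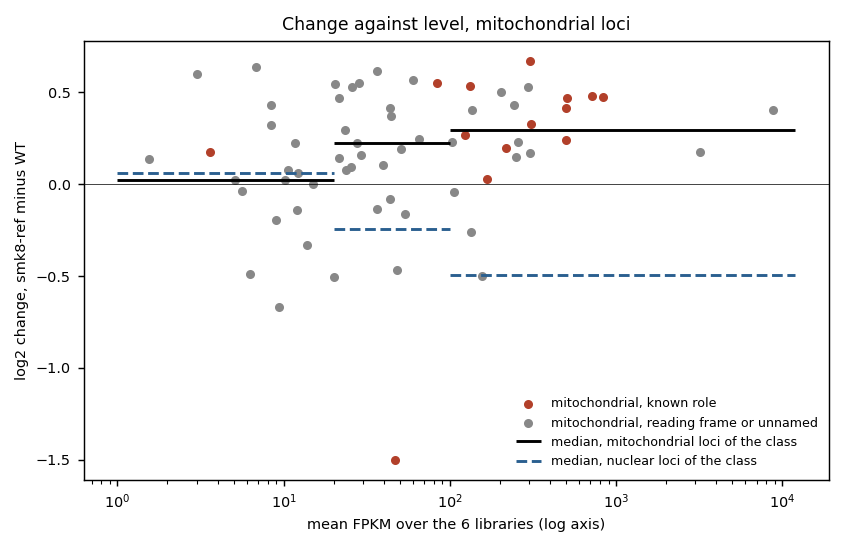
The log2 change, smk8-ref minus WT, against the mean FPKM over the 6 libraries on a log axis for 66 members, with the medians of the members (solid) and of nuclear loci (dashed) in 3 classes of level. In the class of 100 FPKM or more the medians are 0.30 for the members and -0.50 for nuclear loci.

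The libraries of a genotype were not alike in these members. The median deviation of the members from their WT mean, on the log2 scale, was 0.17, 0.29 and 0.28 in smk8-ref replicates 1 to 3, against -0.04, 0.16 and -0.06 in WT replicates 1 to 3. WT replicate 2 thus lay next to smk8-ref replicate 1. Of the 66 members with full values, 29 were lowest in WT replicate 3, 19 in WT replicate 1 and 1 in WT replicate 2.

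Nuclear genes of mitochondrial function with a name in the table changed in both directions. Of 6 found from a list of names, LON1 rose, CPN60II and EFTS fell and 3 did not pass, where 3.39% of all loci tested rose and 4.21% fell. Name families that were also planned, such as TOM, TIM, MDH, VDAC and PPR names, were not included, so the 6 are only a part of the planned list. The 6 genes had a median log2 change of -0.55, against 0.05 over all loci. All but EFTS had a mean of 20 FPKM or more, where nuclear medians were also negative. For nuclear loci with at least 1 FPKM in every library, these were -0.24 at 20 to 100 FPKM and -0.50 at 100 FPKM or more. A nuclear locus on chromosome 6 that the table names atpB was left out of the 6 genes because plastid ATP synthase has a gene of that name. This atpB locus fell, to 62.2, 64.2 and 90.5 FPKM in smk8-ref, against 113, 123 and 142 FPKM in WT (adjusted p = 0.044). LON1, a protease of the mitochondrial matrix, stood at 33.7, 29.1 and 29.2 FPKM in smk8-ref, against 20.2, 17.6 and 19.8 FPKM in WT (adjusted p = 0.032). CPN60II, a mitochondrial chaperonin, stood at 40.2, 52.9 and 53.1 FPKM in smk8-ref, against 78.0, 82.4 and 81.1 FPKM in WT (adjusted p = 0.034).

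EFTS, an organellar elongation factor of translation, stood at 8.80, 9.45 and 12.1 FPKM in smk8-ref, against 16.1, 16.1 and 18.8 FPKM in WT (adjusted p = 0.041). All 3 had groups apart. The chaperonin gene CPN60I averaged 43.2 ± 13.1 FPKM in smk8-ref and 78.6 ± 10.1 FPKM in WT (SD, n = 3 each, limma adjusted p = 0.073). The adenine nucleotide carriers ANT1 and ANT2, which exchange ATP for ADP across the inner membrane, averaged 108 ± 4.82 and 75.5 ± 7.70 FPKM in smk8-ref and 144 ± 32.0 and 101 ± 21.8 FPKM in WT (SD, n = 3 each, limma adjusted p = 0.18 and 0.19).

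Only some markers of the tissue were checked by name, and zein names for endosperm and OLE names for embryo were not looked up. The endosperm names O2, PBF1, MEG1, BETL1, SH2, BT2 and WX1 were looked up and not found among the gene names given. The endosperm genes FIE1, ESR1 and ESR3 summed to between 19.9 and 33.0 FPKM in smk8-ref and between 22.8 and 43.5 FPKM in WT, and ESR3 alone of them passed the test, lower in smk8-ref (adjusted p = 0.043). The embryo, the other part of a kernel that dissection could carry along, was checked by 4 markers, KN-1, OBAP1A, OBAP2A and OBAP2B, none listed at 0. They summed to 89.1, 59.1 and 77.6 FPKM in smk8-ref, against 20.7, 26.2 and 68.0 FPKM in WT. The means differed in the direction of the mitochondrial sum, and WT replicate 3 lay among the smk8-ref values. WT replicate 1 was lowest in both the embryo sum and the mitochondrial sum (17056 FPKM). Within WT, replicate 3 had the highest mitochondrial sum (19275 FPKM), although it was the lowest library for 29 of the 66 members. That sum holds a cox3 value of 1515 FPKM, where WT replicates 1 and 2 were listed near zero. Without the loci that had a library under 1 FPKM, the sums of WT replicates 1 to 3 were 16822, 18290 and 16929 FPKM, and replicate 2 was highest. CR4, the marker for aleurone, lay between 9.24 and 10.4 FPKM in smk8-ref and between 7.24 and 8.93 FPKM in WT. The part of these markers in the mitochondrial values was not tested.

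In the authors' deposited table, 2 of the 72 members are marked up, orf117-c and orf137-a-ct, and 5 are marked down, cox2, cox3, orf126-d, orf133-a and rps7. The marks do not follow the FPKM of the loci in every case, since 53 of the 72 log2 fold changes there had the sign of the limma change. Of the authors' log2 fold changes of the 72 members, 39 were above 0, with a median of 0.05. In the limma fit 56 were positive, with a median of 0.23, so the shift of the members was much smaller in the authors' comparison. Of the 7 marked, 5 are members with a near-zero value in 1 or more libraries. In the authors' deposited table cox2 has a log2 fold change of -3.55, although its FPKM values were higher in all smk8-ref libraries than in all WT libraries. The members nad7, orfX and orf149-a have log2 fold changes of 0.42, 0.52 and 0.57 in the authors' deposited table and carry no mark there, and no member has a q-value below 0.658 in it.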

How the data were processed

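Total RNA of endosperm was extracted with Trizol and sequenced on standard Illumina libraries, per the labels' protocols. The submitters' processing notes name HISAT and StringTie, without versions. Settings, scaling total and build are not stated, though contig names begin with B73V4, and positions are the table's own. The authors deposited FPKM values for 86771 transcripts, 1 column per library, together with the authors' own linear fold change (a ratio), log2 fold change, p-value and q-value, whose model is not stated per the file headers.

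Transcript FPKM values were summed per locus, and loci with at least 1 FPKM in at least 3 libraries entered a linear model on genotype, fitted to log2(FPKM + 1) (R 4.3.3, limma 3.58.1, variance trend, two-sided, Benjamini-Hochberg over 15858 loci, threshold 0.05). The pseudocount understates changes of low loci. The fit was tested on simulated data. FPKM gives no read totals, so depth is unknown and counting intervals are left out. How reads shared by overlapping transcripts or repeated copies were divided is not stated. Strand is not stated either, so overlapping loci on opposite strands cannot be told apart. No pairing by replicate number is stated. The members, the lists and the tests were chosen with earlier results of these data known. The rule allowed naming of any mitochondrial locus with a gene name, the 5 most abundant without one and the 2 on each side of the filter; which named loci are given in full, matching names by exact position, and leaving out loci with a library under 1 FPKM, were chosen after values were seen. No sequence is shown, since none was used here.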

Additional observations from a re-analysis of the deposited data

How the results depend on the processing

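The number of members called was 3. It was 0 with no filter on low values, 0 among transcripts (20 of each at an unadjusted p under 0.05), 1 with no variance trend and 5 with quantile normalization, and 0 to 3 with 1 library left out (limma, where 10 to 22 members had an unadjusted p under 0.05). Median-of-ratios scaling, a pseudocount of 5 and a filter at 5 FPKM each gave 3 higher and 1 lower, which was orf115-e. With the replicate number as a block, 0 members passed (21 at an unadjusted p under 0.05) and 36 loci passed over the whole table. Same-numbered libraries correlated at 0.0069, -0.0085 and 0.083 in their deviations, and differently numbered ones between -0.106 and 0.0987. With 3 libraries per genotype, these values neither show nor exclude a pairing by number. Over the whole table the count was 1205, against 388 with no filter, 779 with quantile normalization, 490 among transcripts and 28 to 1425 with 1 library left out. The members' median was 0.23, against 0.048 with no filter, where all 115 loci enter, 0.37 with quantile normalization and 0.19 to 0.28 with 1 library left out. The ratio of the mitochondrial sums was 1.30. It was 1.25 without the loci under 1 FPKM in a library, 1.26 with median-of-ratios scaling, 1.33 with TPM scaling and 1.36 with nuclear-sum scaling. It was 1.34 without the 2 most abundant loci, and 1.25 to 1.33 with 1 library left out. Quantile normalization turned orf147-b to -0.13 and orf133-b to 0.14 and took orf99-d to 0. For 26 loci with a printed change, 407 of 440 alternative values kept direction and side of the threshold. Most of these loci were not called in the main fit, so staying on that side says little. The called loci kept their call less often, nad7 and orfX in 8 of 17 alternative fits and orf149-a in 9 of 17. Causes were not tested, except that fewer loci are tested or fewer libraries used where the setting says so. Depth is unknown, and 3 libraries per genotype limit the precision.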
